A study of Mus musculus with 4 samples.

Results

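The genes described here encode the chromatin machines on which leukemia driven by MLL fusion proteins depends: the MLL methyltransferases with their COMPASS partners, Dot1l with its partners, the super elongation complex, the PAF1 complex and Polycomb repressive complexes 1 and 2 (PRC1 and PRC2). They were chosen by name, as 41 genes out of the 19938 that the arrays measure by a probe set with 1 gene symbol. Of the 41 genes, 40 had such a probe set and all 40 were tested. Cbx6 shares its only listed probe set with Npcd and Nptxr, so it was given no value. Where a gene had several probe sets, the brightest over the arrays stood for it. The levels of Kmt2a and Mllt3, the mouse genes of the fusion partners, may include RNA of the fusion itself: the labels do not say which parts of them the probe sets or the fusion cover, and this was not tested.

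Total RNA of leukemic whole bone marrow from C57BL/6 mice was measured, with 1 Affymetrix mouse gene array for each of 4 samples. All 4 marrows carried acute myeloid leukemia caused by the fusion protein MLL-AF9; 2 were labelled wild type (Hes1+/+) and 2 Hes1 null (Hes1-/-). Hes1 is a transcriptional repressor that Notch signalling induces, and the study asked about its part in the restraint that Notch places on this leukemia. How the fusion was introduced, the age of the mice and whether marrows were pooled are not given in the sources used here, and no label ties each sample to its own animal, so p-values measure a spread between samples that may be partly technical.

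MLL-AF9 joins the DNA-binding part of MLL, encoded by Kmt2a, to AF9, encoded by Mllt3. The fusion stays on MLL target genes with menin and LEDGF, and its AF9 part recruits Dot1l, which methylates histone H3 within nucleosomes over transcribed genes, and the super elongation complex, whose kinase releases paused RNA polymerase. The PAF1 complex travels with the polymerase and binds MLL. Polycomb complexes work on the repressed side: PRC2 methylates histone H3 and PRC1 attaches ubiquitin to histone H2A, and both are known to be needed by leukemias of this kind.

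Levels below are log2 of the deposited intensity. A difference is the Hes1-null mean minus the wild-type mean on that scale, given with its standard error (SE) from limma's moderated fit over all genes (n = 2 arrays in each genotype). The number of arrays limits the precision. Levels of different genes come from different probe sets and are not compared with each other. Hes1 itself read 5.59 and 5.79 in wild type against 5.43 and 5.84 in Hes1-null marrow. The genotypes overlapped there and the probe set's place in the gene is not known, so Hes1-null means labelled so throughout.

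None of the measured complex genes passed the test over all genes: 0 of 40 had an adjusted p under 0.05 by limma, where 0.145% of all genes did, and the smallest adjusted p among them was 0.469, for Phc1. At an unadjusted p under 0.05 there were 6 of 40 (15.0%), against 8.29% of all genes and 11.2% of genes no dimmer than the median, a class that holds 39 of the 40. Of these 6, Mllt6, Ell, Ell2 and Phc1 were higher in Hes1-null marrow (3.51% of all genes in that direction) and Psip1 and Pcgf5 were lower (4.78%). Over the 40 genes the median log2 difference was 0.04, against -0.02 over all genes, with 22 positive and 18 negative differences. The genotypes did not overlap for 21 of the 40 (52.5%), against 38.0% of all genes and 43.5% of genes no dimmer than the median. In 11 of these the Hes1-null arrays were the higher ones (17.4% of all genes) and in 10 the lower ones (20.6%). For 10 of the 40 genes the difference exceeded the gap between arrays in both genotypes, near the 25.2% of all genes.

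The size of the changes these arrays allow can be read from the intervals. The 95% interval of the difference lay within a 2-fold change in either direction for 31 of 40 genes, against 87.8% of all genes and 80.9% of those no dimmer than the median. The 9 with wider reach were Psip1, Dot1l, Mllt6, Aff1, Ell2, Ctr9, Ezh2, Pcgf5 and Phc1. Kmt2a, whose product is the wild-type counterpart of the fusion, had an interval from -0.62 to 0.20, and Cbx7, the gene with the smallest difference, one from -0.39 to 0.41.

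**Figure D1:**
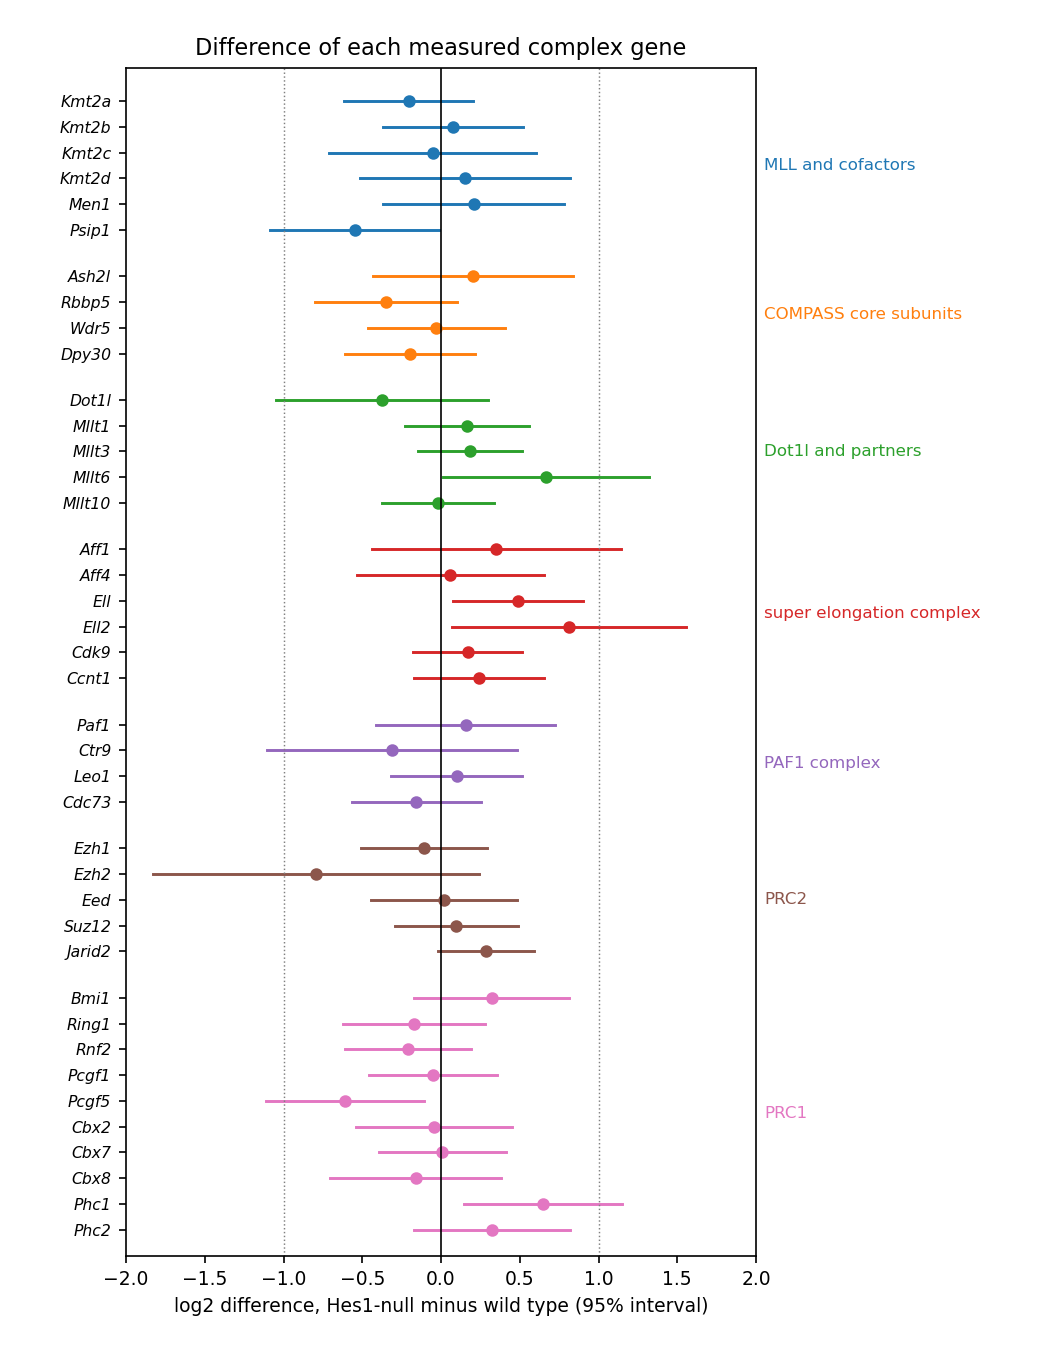
Log2 difference of each of the 40 measured genes, Hes1-null minus wild type (points), with its 95% interval from limma (lines), by complex; dotted lines mark a 2-fold change in either direction. The intervals of 34 genes cross 0, and all 6 super elongation genes lie on the positive side.

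The MLL family holds the histone methyltransferases that mark active promoters and enhancers. Kmt2a lay at 9.23 and 9.18 in wild type and at 8.91 and 9.09 in Hes1-null marrow. The Hes1-null arrays were the lower ones, with a difference of -0.21 ± 0.16 (unadjusted p = 0.258, adjusted p = 0.820). Its closest relative Kmt2b overlapped between genotypes, at 8.81 and 8.95 against 8.83 and 9.08 (0.08 ± 0.18). Kmt2c and Kmt2d, which act at enhancers, overlapped too, with differences of -0.05 ± 0.26 and 0.15 ± 0.27. Kmt2d lay at 9.53 and 9.80 in wild type and at 9.47 and 10.16 in Hes1-null marrow, so both extremes came from the Hes1-null arrays. A dimmer probe set of Kmt2d gave -0.07, also with overlap. The median of the 6 genes, with the cofactors below, was 0.01, and it was -0.24 without Hes1-null replicate 2 and -0.006 with a gene's probe sets averaged.

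Menin and LEDGF hold MLL and its fusions on chromatin. Men1, the menin gene, lay at 8.87 and 8.84 in wild type and at 9.34 and 8.78 in Hes1-null marrow, an overlap. Psip1, the LEDGF gene, lay at 7.31 and 7.40 in wild type and at 7.05 and 6.55 in Hes1-null marrow. Both Hes1-null arrays were below both wild-type arrays for Psip1, with a difference of -0.55 ± 0.21 (unadjusted p = 0.0462, adjusted p = 0.595), so it did not pass. The difference was -0.30 without Hes1-null replicate 2.

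The 4 core subunits that all COMPASS complexes share did not move in a common direction. Rbbp5, which binds the catalytic domain, lay at 8.41 and 8.33 in wild type and at 8.15 and 7.89 in Hes1-null marrow. It had the smallest p of the 4, with a difference of -0.35 ± 0.18 (unadjusted p = 0.104, adjusted p = 0.70) and no overlap. Dpy30 was the other subunit without overlap, at 9.78 and 9.67 against 9.65 and 9.41 (-0.20 ± 0.16). Ash2l (0.20 ± 0.25) and Wdr5 (-0.03 ± 0.17) overlapped, and the sign for Wdr5 turned when arrays were centred on their medians. The median of the 4 was -0.11 and became 0.01 when Hes1-null replicate 2 was left out and -0.24 when replicate 1 was.

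Dot1l, the methyltransferase that MLL-AF9 recruits, lay at 9.78 and 9.95 in wild type and at 9.85 and 9.12 in Hes1-null marrow. Hes1-null replicate 1 lay between the wild-type arrays and replicate 2 lay below them, a difference of -0.38 ± 0.27 (unadjusted p = 0.214, adjusted p = 0.795), which was -0.01 without replicate 2. Mllt1 and Mllt3 encode the paralogs ENL and AF9, readers of acetylated histones that link Dot1l and the elongation machinery to chromatin. Mllt1 lay at 9.78 and 9.79 against 9.83 and 10.07 (0.16 ± 0.16), and Mllt3 at 5.61 and 5.64 against 5.73 and 5.88 (0.18 ± 0.13). In both the Hes1-null arrays were the higher ones by a small amount. The Mllt3 level is under the median of 6.36 over all genes, and the deposited values carry no detection call, so how far it lies above background is not known.

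Mllt6 and Mllt10 encode the partners AF17 and AF10 of Dot1l, and they differed from each other. Mllt6 lay at 6.99 and 7.11 in wild type and at 7.37 and 8.06 in Hes1-null marrow. Both Hes1-null arrays were above both wild-type arrays, by 0.67 ± 0.26 (1.59-fold, unadjusted p = 0.0476, adjusted p = 0.595), and by 0.32 without Hes1-null replicate 2. Mllt10, itself a fusion partner gene of MLL, lay at 10.54 and 10.49 against 10.61 and 10.39 (-0.02 ± 0.14). Its genotypes overlapped and its sign turned when the arrays were centred on their medians. The median of the 5 genes was 0.16, with a range from 0.09 without Hes1-null replicate 2 to 0.26 without Hes1-null replicate 1.

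The super elongation complex was the group in which every difference had the same sign, positive for 6 of 6 genes with a median of 0.30. Over all genes 9261 of 19938 differences were positive. Of 22 other measured elongation genes, 13 were positive and 9 negative, with a median of 0.12. None of the 6 super elongation genes passed the test over all genes. With each array left out in turn their median ran from 0.24 to 0.46. In the alternatives that kept all arrays it ran from 0.21 to 0.33. Without Hes1-null replicate 2 the differences of Aff1 (-0.09) and Aff4 (-0.24) turned negative. Ell and Ell2 encode paralogous elongation factors that raise the catalytic rate of RNA polymerase II. Ell lay at 8.70 and 8.79 in wild type and at 9.15 and 9.31 in Hes1-null marrow. The genotypes stood apart by more than either gap between replicates, 0.49 ± 0.16 (1.4-fold, unadjusted p = 0.0281, adjusted p = 0.522). Ell2 lay at 6.68 and 5.82 in wild type and at 7.11 and 7.02 in Hes1-null marrow. Here the wild-type arrays were 0.854 apart, more than the difference between genotypes of 0.81 ± 0.30 (1.76-fold, unadjusted p = 0.0368, adjusted p = 0.561), so the size rests on wild-type replicate 2: without it the difference was 0.39, and without wild-type replicate 1 it was 1.24.

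Cdk9 and Ccnt1 form P-TEFb, the kinase that releases the paused polymerase. Cdk9 lay at 10.41 and 10.23 in wild type and at 10.48 and 10.50 in Hes1-null marrow (0.17 ± 0.14). Ccnt1 lay at 8.93 and 9.08 against 9.32 and 9.17 (0.24 ± 0.16). Both were higher on the Hes1-null arrays without overlap and neither reached an unadjusted p of 0.05. The scaffolds Aff1 and Aff4 overlapped, with differences of 0.35 ± 0.31 and 0.06 ± 0.24. Aff1 lay at 9.33 and 9.53 in wild type and at 9.34 and 10.23 in Hes1-null marrow, and the excess came from replicate 2: without it the difference was -0.09. A dimmer probe set of Aff1 gave 0.01.

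The PAF1 complex, which binds MLL and the fusion and follows the polymerase, showed no common direction. Ctr9, its scaffold, had the smallest p of the 4 genes and lay at 8.10 and 7.91 in wild type and at 8.13 and 7.25 in Hes1-null marrow. The Hes1-null arrays enclosed the wild-type arrays, with a difference of -0.31 ± 0.32 (unadjusted p = 0.365, adjusted p = 0.875). Cdc73, which encodes parafibromin, lay at 9.48 and 9.48 against 9.43 and 9.21 (-0.16 ± 0.16), the only one of the 4 without overlap. Paf1 (0.16 ± 0.23) and Leo1 (0.10 ± 0.17) overlapped. The median of the 4 was -0.03, turned to 0.003 with arrays centred on their medians, and was 0.19 when Hes1-null replicate 2 was left out and -0.19 when replicate 1 was.

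In PRC2 the catalytic subunit gene Ezh2 had the largest absolute difference within the complex and was set by 1 array. Ezh2 lay at 11.09 and 11.16 in wild type, at 10.98 on Hes1-null replicate 1 and at 9.68 on Hes1-null replicate 2. Both Hes1-null arrays were below wild type, but replicate 1 by little, and the difference of -0.79 ± 0.41 did not pass (unadjusted p = 0.108, adjusted p = 0.702). It was -0.14 when that array was left out and -1.44 when Hes1-null replicate 1 was. Its paralog Ezh1, the catalytic subunit known for non-dividing cells, lay at 8.95 and 8.96 against 8.90 and 8.79 (-0.11 ± 0.16). Ezh2 and Ezh1 thus both had Hes1-null arrays below wild type, and whether their differences are unequal was not tested.

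On Hes1-null replicate 2 the other PRC2 genes fell less than Ezh2 or rose. Against Hes1-null replicate 1, Eed (-0.20), Jarid2 (-0.07) and Ezh1 (-0.11) were lower and Suz12 (0.33) was higher. Suz12, a core subunit, lay at 10.65 and 10.63 in wild type and at 10.57 and 10.90 in Hes1-null marrow (0.10 ± 0.16). Eed, which binds the methyl mark, overlapped (0.02 ± 0.18), while a second and dimmer Eed probe set was higher in Hes1-null marrow by 0.44 (unadjusted p = 0.0345, tested among all probe sets with 1 symbol). This second probe set read 4.55 and 4.48 in wild type and 4.79 and 5.11 in Hes1-null marrow, under the median of 6.36 over all genes. How far it lies above background is not known, and whether the 2 probe sets differ was not tested. Jarid2, which guides PRC2 to its targets, lay at 10.67 and 10.59 in wild type and at 10.95 and 10.88 in Hes1-null marrow. Its genotypes stood apart by more than the gaps within them, 0.29 ± 0.12, without passing (limma, unadjusted p = 0.0615, adjusted p = 0.618). The PRC2 median was 0.02 and lay between -0.10, without wild-type replicate 2, and 0.11, without wild-type replicate 1.

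PRC1 joins a RING ubiquitin ligase, a PCGF protein that defines the subtype, CBX readers of the PRC2 mark and PHC proteins that cluster the complex. The ligase genes Ring1 (-0.17 ± 0.18) and Rnf2 (-0.21 ± 0.16) were each lower on both Hes1-null arrays, and neither passed. Rnf2 lay at 9.37 and 9.55 in wild type and at 9.21 and 9.29 in Hes1-null marrow. Bmi1, a PCGF protein gene known for stem cell self-renewal, lay at 7.61 and 7.56 against 8.10 and 7.71 (0.32 ± 0.20, unadjusted p = 0.156). Pcgf5, of a variant PRC1 without CBX proteins, went the other way. It lay at 8.14 and 8.21 in wild type and at 7.76 and 7.36 in Hes1-null marrow, below wild type on both arrays, with a difference of -0.61 ± 0.20 (1.53-fold lower, unadjusted p = 0.0250, adjusted p = 0.505). Pcgf1 overlapped (-0.05 ± 0.16).

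The readers Cbx2 (-0.04 ± 0.20), Cbx7 (0.01 ± 0.16) and Cbx8 (-0.16 ± 0.22) all overlapped between genotypes. Cbx2 and Cbx8 are direct neighbours among protein-coding genes on mouse chromosome 11. The clustering subunit Phc1 had the smallest p of the 40 genes. It lay at 7.38 and 7.16 in wild type and at 7.74 and 8.09 in Hes1-null marrow. Both Hes1-null arrays were higher than both wild-type arrays, by 0.65 ± 0.20 (1.57-fold, 95% interval 0.14 to 1.15, unadjusted p = 0.0205, adjusted p = 0.469). Its paralog Phc2 lay at 8.50 and 8.55 against 8.65 and 9.04 (0.32 ± 0.20), the same direction without passing. The median of the 10 PRC1 genes was -0.05, and it was 0.01 without wild-type replicate 1 and -0.12 without wild-type replicate 2.

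**Figure D2:**
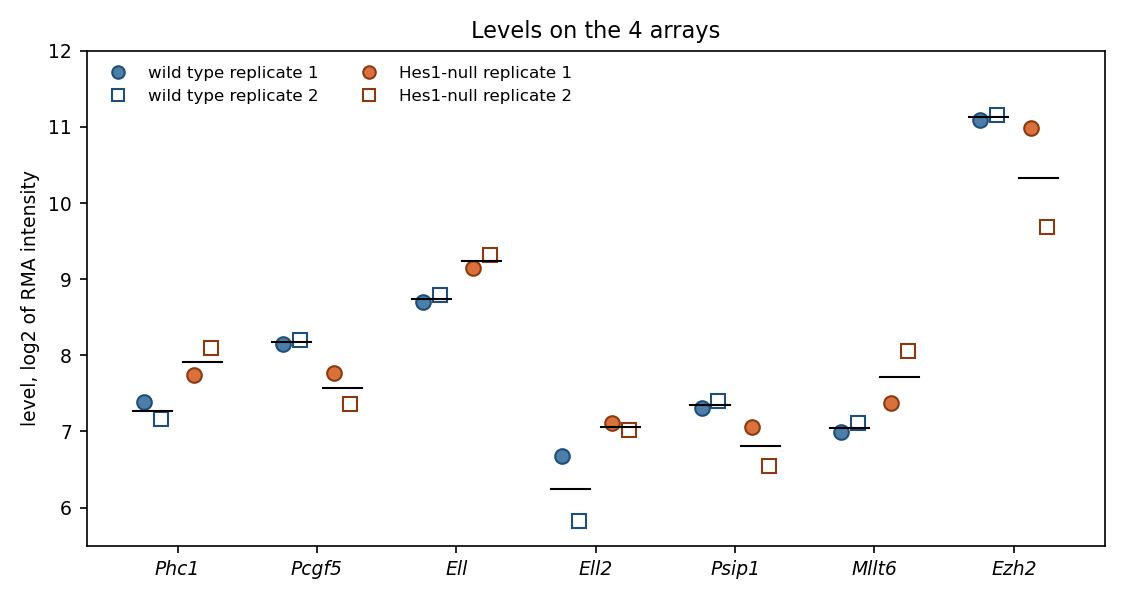
Level (log2 of RMA intensity) on each of the 4 arrays for the 6 genes with an unadjusted p under 0.05, in order of p, and for Ezh2; horizontal bars are genotype means (n = 2). The genotypes do not overlap for any of the 7, and Hes1-null replicate 2 at 9.68 sets the size of the Ezh2 difference.

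Since Hes1 acts at DNA, the promoters of the genes above are shown with the 2 motifs known for HES repressors. Both strands of the 250 bases upstream of each RefSeq start site (build GRCm38.p6) were searched for the N box, CACNAG, and for the class C site, CACGCG. The 2 motifs cannot match the same 6 bases on a strand but can lie side by side. Windows existed for 35 of the 41 genes, 49 windows in all. Of the 35 genes, 11 have a class C site in a window and 11 have an N box. Of the 6 genes with an unadjusted p under 0.05 by limma, Ell and Mllt6 have a class C site. Ell2 and Phc1 have neither motif. The 3 windows of Pcgf5 hold no class C site but an N box in 2, and Psip1 was not matched. Cbx7, the gene with the smallest difference, has 2 class C sites and an N box. Ell and Mllt6 are shown for their class C sites and Phc1 as a gene with neither motif. Ezh2, with an unadjusted p of 0.108 by limma, is shown because its motifs adjoin, and was chosen after its values were seen. Motif matches are in capitals, and letters read from the strand of the gene, 5′ to 3′.
Ell, chr8:70539425-70539674, plus strand: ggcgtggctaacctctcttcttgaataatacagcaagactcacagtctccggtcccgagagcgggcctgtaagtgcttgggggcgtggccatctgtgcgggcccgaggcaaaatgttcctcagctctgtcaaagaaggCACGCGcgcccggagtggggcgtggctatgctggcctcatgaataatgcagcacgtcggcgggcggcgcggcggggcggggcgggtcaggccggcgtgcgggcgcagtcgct
Mllt6, chr11:97663162-97663411, plus strand: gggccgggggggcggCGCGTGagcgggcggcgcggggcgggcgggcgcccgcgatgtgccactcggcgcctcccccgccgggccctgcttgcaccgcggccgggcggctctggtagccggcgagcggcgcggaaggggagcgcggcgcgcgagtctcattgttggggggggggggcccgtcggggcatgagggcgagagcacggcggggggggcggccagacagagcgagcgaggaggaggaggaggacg
Ezh2, chr6:47595031-47595280, minus strand: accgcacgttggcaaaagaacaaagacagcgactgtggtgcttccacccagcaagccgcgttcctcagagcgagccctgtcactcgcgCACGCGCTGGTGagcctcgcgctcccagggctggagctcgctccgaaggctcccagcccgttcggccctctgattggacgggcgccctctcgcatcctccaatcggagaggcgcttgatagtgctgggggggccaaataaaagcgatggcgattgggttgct
Phc1, chr6:122340228-122340477, minus strand: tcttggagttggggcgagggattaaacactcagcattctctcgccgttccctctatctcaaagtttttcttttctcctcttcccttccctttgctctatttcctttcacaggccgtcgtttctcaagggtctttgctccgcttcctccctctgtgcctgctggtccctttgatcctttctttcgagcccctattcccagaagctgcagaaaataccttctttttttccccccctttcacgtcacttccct

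The class C site of Ell begins 112 bases before the start site and that of Mllt6, on the opposite strand, 235 bases before it. In the Ezh2 window a class C site at 162 bases and an N box on the opposite strand at 156 bases adjoin, which gives the 12 capitals in a row. A class C site was found in 11 of 49 windows of the complex genes (22.4%), against 7.62% of all 32851 windows. The windows of the complex genes are rich in CpG, with a median GC content of 66.4% against 52.4% over all windows, and 37 of the 49 (75.5%) had at least 50% GC and a CpG ratio (observed over expected) of at least 0.6, against 31.0% of all windows. Among windows of that CpG-rich kind, a class C site, which itself holds CpG, was found in 29.7% for the complex genes and 20.6% in all. An N box was found in 24.5% of the windows of the complex genes and 36.7% of all windows, and among CpG-rich windows in 29.7% and 32.3%. These matches describe letters in a window and were not tied to any measured binding.

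The Hes1-null arrays differed from each other more than the wild-type arrays did, for complex genes as for the rest. The median gap between arrays was 0.295 in Hes1-null and 0.0834 in wild type over the 40 genes, against 0.247 and 0.112 over all genes. The Hes1-null gap was the larger one in 34 of 40 genes, against 72.1% of all genes. It also exceeded the difference between genotypes in 27 of 40, against 67.0% of all genes. Hes1-null replicate 2 was the lowest or the highest array for 31 of 40 genes (77.5%), against 66.4% of all genes.

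In the COMPASS core and the PAF1 complex the gap between the Hes1-null arrays had the same sign for every gene. In the MLL group it did not. All 4 MLL methyltransferases were higher on Hes1-null replicate 2 than on replicate 1, Kmt2c and Kmt2d by 0.691 and 0.690 and Kmt2a and Kmt2b by 0.184 and 0.248. Their cofactor genes Men1 and Psip1 were lower on replicate 2, with gaps of -0.55 and -0.50. All 4 COMPASS core subunits were lower on replicate 2, with a median gap of -0.26, and so were all 4 PAF1 complex genes, with a median gap of -0.42. Of all genes no dimmer than the median, 60.3% were lower on that array. The gap, replicate 2 minus replicate 1, was -1.30 for Ezh2, -0.88 for Ctr9 and -0.72 for Dot1l, and it was 0.893 for Aff1, 0.690 for Mllt6 and 0.595 for Aff4. In all, 17 of 40 genes were higher on replicate 2, against 56.2% of all genes and 39.6% of those no dimmer than the median. With 1 array on each side this gap has no test.

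**Figure D3:**
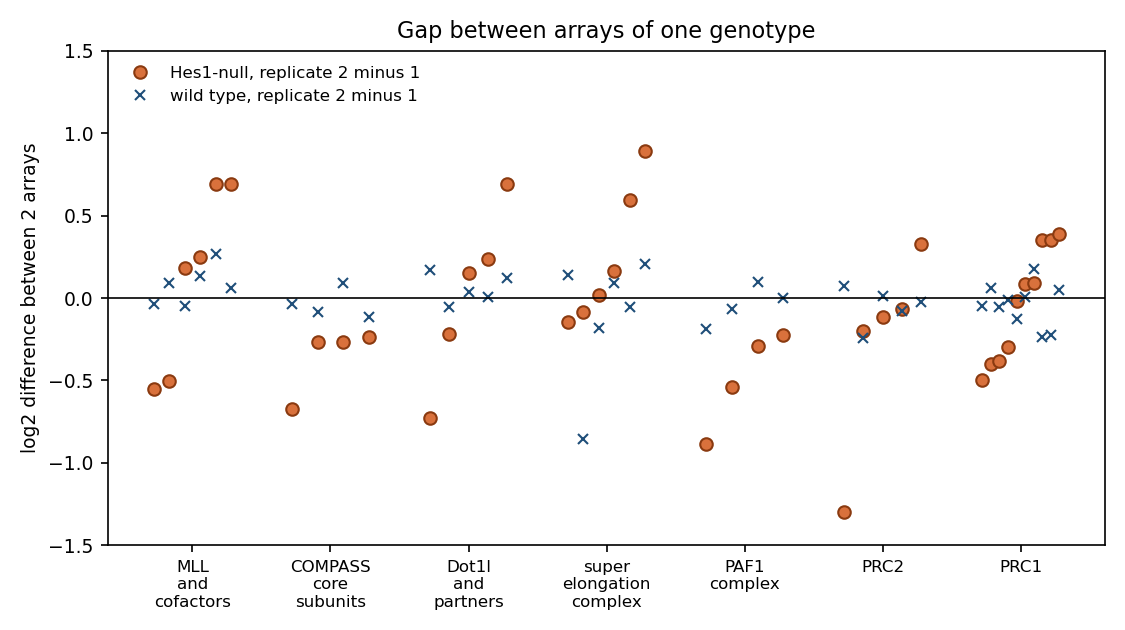
Log2 difference between the replicates of a genotype, replicate 2 minus replicate 1, for each of the 40 genes by complex (circles, Hes1-null; crosses, wild type). All COMPASS core and PAF1 complex genes lie below 0 in Hes1-null, and Ezh2 lies lowest at -1.30.

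Calls depended on which Hes1-null array was kept. Without Hes1-null replicate 1, so that replicate 2 alone stood for the genotype and its spread was taken from the wild-type arrays, 3 of 40 genes passed an adjusted p of 0.05 by limma, against 5.01% of all genes. They were Ezh2 (-1.44, adjusted p = 0.0369), Mllt6 (1.01, adjusted p = 0.0441) and Pcgf5 (-0.81, adjusted p = 0.0477). At an unadjusted p under 0.05 there were then 20 of 40, against 29.0% of all genes. That count was 10 without Hes1-null replicate 2 (16.8% of all genes in the same fit), 1 without wild-type replicate 1 (3.55%) and 0 without wild-type replicate 2 (3.33%), against 6 with all arrays, and 0 of 40 complex genes passed the adjusted threshold by limma in those 3 cases, where 0.0752%, 0.176% and 0.0301% of all genes did. The genotypes did not overlap for any of the 6 genes with an unadjusted p under 0.05 by limma. Leaving out 1 array therefore could not turn their sign, and the sign is no check on them.

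**Figure D4:**
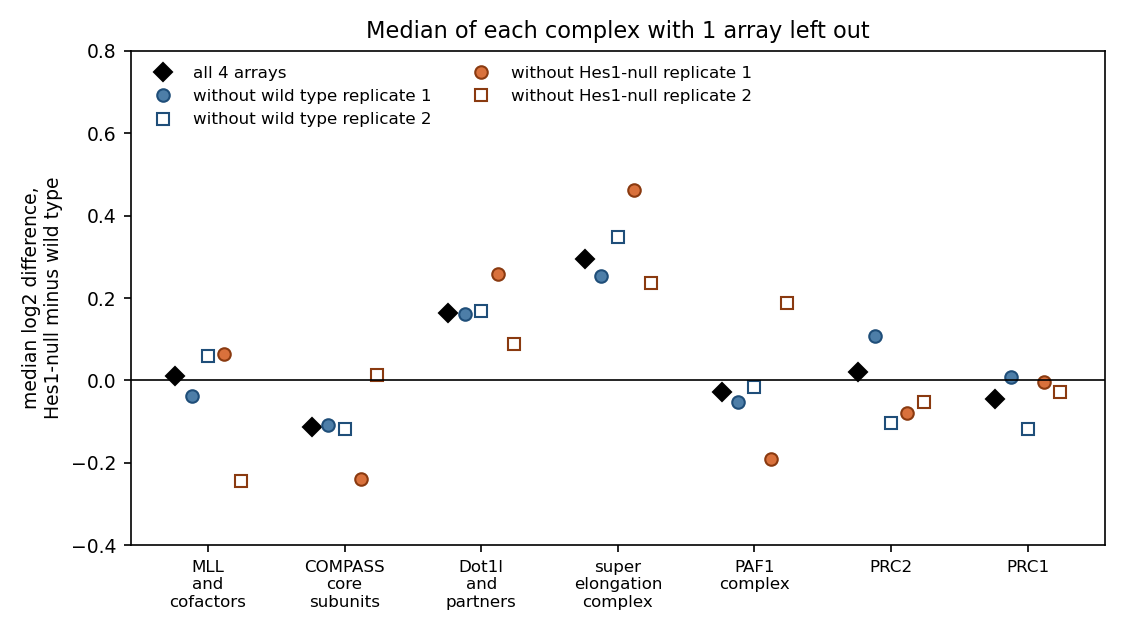
Median log2 difference of each complex, Hes1-null minus wild type, with all 4 arrays (diamonds) and with each array left out in turn (other symbols). The super elongation complex stays between 0.24 and 0.46 and the Dot1l group between 0.09 and 0.26. The MLL, COMPASS core, PAF1, PRC2 and PRC1 medians cross 0.

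Of other genes of the same machines, 14 of 14 listed COMPASS genes, 22 of 25 elongation genes and 22 of 23 Polycomb genes were measured, and 0 passed the adjusted threshold by limma. At an unadjusted p under 0.05 there were 0 of 14 other COMPASS genes, 0 of 22 other Polycomb genes and 4 of 22 other elongation genes, where 8.29% of all genes and 11.2% of those no dimmer than the median had such a p. Those 4 were Aff3, Hexim1 and Eaf2, higher in Hes1-null marrow, and Aff2, lower. Aff3, a relative of the Aff1 and Aff4 scaffolds, lay at 6.01 and 5.72 in wild type and at 7.46 and 6.85 in Hes1-null marrow. The genotypes stood apart, by 1.29 ± 0.24 (2.45-fold, unadjusted p = 0.00253, adjusted p = 0.208), without passing. Hexim1, the inhibitor that holds P-TEFb inactive, lay at 7.55 and 7.70 against 8.29 and 8.58 (0.81 ± 0.19, unadjusted p = 0.00593, adjusted p = 0.284), and without Hes1-null replicate 1 it passed (0.95, adjusted p = 0.0467). Eaf2, a partner of ELL proteins, differed by 0.36 ± 0.14, and by 0.24 without wild-type replicate 2. It lay at 4.30 and 4.06 in wild type against 4.52 and 4.55, under the median of 6.36 over all genes. How far that is above background is not known. Aff2, another relative of the scaffolds, differed by -1.0 ± 0.39, which was -0.42 when Hes1-null replicate 1 was left out and -1.58 when replicate 2 was. Mtf2, an accessory subunit gene of PRC2, had a low value on the same array as Ezh2. It lay at 9.37, 9.30 and 9.20 on the other arrays and 7.99 on Hes1-null replicate 2. Of the 22 other Polycomb genes, Mtf2 among them, 10 were lower and 12 higher on Hes1-null replicate 2 than on replicate 1.

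Among 18 measured target genes of MLL fusions, 0 passed the adjusted threshold by limma and the median difference was 0.09. At an unadjusted p under 0.05 there were 3 (16.7%, against 8.29% of all genes), Flt3 (1.94 ± 0.30), which encodes a receptor kinase of progenitors, Bcl2 (-0.51 ± 0.16), a survival gene, and Lmo2 (-0.38 ± 0.12), a stem cell transcription cofactor gene. Flt3 had an adjusted p of 0.142 with all arrays and 0.0316 without wild-type replicate 1.

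Other genes moved with the arrays beside these results, and their part in them was not tested. In whole marrow, fewer cells of a type and less RNA per cell cannot be told apart. Of 17 cell cycle genes, 17 were lower on Hes1-null replicate 2 than on replicate 1, as Ezh2 was, against 60.3% of genes no dimmer than the median, a class that holds all 17. Their summed intensities were 27040 and 26030 in wild type and 26250 and 20760 in Hes1-null marrow. Of 14 immediate early genes, 11 had an unadjusted p under 0.05, all higher in Hes1-null marrow (3.51% of all genes in that direction), with summed intensities of 4750 and 5310 against 13140 and 20710. Among them Jun passed the adjusted threshold by limma (2.70 ± 0.16, adjusted p = 0.0231), where 0.145% of all genes did. Of 8 immature myeloid markers, 5 were lower and 1, Flt3, was higher in Hes1-null marrow at an unadjusted p under 0.05. Mpo, the myeloperoxidase gene of immature granulocytes, lay at 12.83 and 12.69 in wild type and at 11.74 and 10.13 in Hes1-null marrow, while Cd34, a progenitor marker, lay between 11.30 and 11.83 on all arrays. The summed intensity of the 8 markers was 31350 and 29170 in wild type against 22230 and 17320. That of 10 neutrophil markers was 14210 and 22950 against 9657 and 12840, and that of 11 monocyte and macrophage markers 10150 and 9552 against 6042 and 6323. At an unadjusted p under 0.05 by limma, 4 of the 10 and 6 of the 11 were lower and 0 higher. Over all genes 4.78% were lower and 3.51% higher at that p, shares that belong beside every marker count here. Ltf of the neutrophil list (-2.77 ± 0.23, adjusted p = 0.0398) passed the adjusted threshold by limma. So did Vcam1 of the monocyte and macrophage list (-2.62 ± 0.17, adjusted p = 0.0242). In the neutrophil list 9 differences were negative and 1 positive, with a median of -1.34. The positive one was Mmp8 (0.95 ± 0.40), whose genotypes did not overlap. Ngp (-0.23) and Lcn2 (-0.30) overlapped. In the monocyte and macrophage list 8 were negative and 3 positive, with a median of -0.93. The positive ones were Cd68 (0.23 ± 0.10), without overlap, and Mertk (0.21 ± 0.38) and C1qa (0.006 ± 0.14), with overlap. Sums were also lower in Hes1-null marrow for 10 T and NK cell markers (1207 and 1216 against 566 and 418, 4 lower), 6 megakaryocyte markers (1106 and 1093 against 607 and 606, 5 lower) and 10 stromal and endothelial markers (2434 and 2695 against 1266 and 983, 4 lower). Sums of 7 erythroid markers (837 and 695 against 656 and 675, 1 lower) and 8 B cell markers (1231 and 1216 against 1792 and 1000, 0 lower) are given beside them. A sum follows its brightest genes, such as Cd28 and Nkg7 for T and NK cells, Lpl for stroma and Cd79b for B cells. Median log2 differences were -0.37 for T and NK cell, -0.61 for megakaryocyte, -0.32 for stromal, -0.07 for erythroid and -0.09 for B cell markers. The median levels of the T and NK cell list (5.37) and the B cell list (5.58) were under the 6.36 over all genes.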

How the data were processed

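Total RNA from 4 leukemic marrows was hybridised to Affymetrix mouse gene arrays, 1 each. Per the submitters' processing notes, the authors made the deposited intensity values with RMA in Expression Console of Affymetrix, whose version was not given in the sources used here. Intensities are on a linear scale, as array medians of 65.0 to 67.3 over 35556 probe sets show, so log2 was taken with nothing added, and the values were otherwise used as deposited. RMA scales arrays alike, so a change in total RNA would not show.

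Platform annotation gave 21789 probe sets 1 gene symbol, 1621 several and 12146 none; only the first kind was used. For 999 genes with several probe sets the brightest was taken, leaving 19938 genes with no filter on low levels. Groups came from the sample titles, 2 arrays each. The test was limma 3.58.1 in R 4.3.3 (lmFit, then eBayes with trend), two-sided, with no term but genotype, on 2 residual and 3.41 prior degrees of freedom, and Benjamini-Hochberg adjustment ran over all genes (threshold 0.05). It was tested on simulated data. Promoter windows come from RefSeq (GRCm38.p6).

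The complex genes and the other gene lists were chosen with earlier results of these data known. All complex genes are named. Full values go at least to those with an unadjusted p under 0.05 and, in each complex, to the gene with the smallest p and the brightest one; paralogs are set side by side, and array values of further complex genes were added by their role. Other lists give at most 4 genes at an unadjusted p under 0.05. Values of Ezh2, Mtf2, Mpo and Cd34 and the gap between Hes1-null arrays were singled out after they were seen. Alternatives were a replicate block, repeated quantile normalization, centring, filters on level, other moderation, array weights, other uses of probe sets and leaving out each array.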

Additional observations from a re-analysis of the deposited data

How the results depend on the processing

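The 29 genes called over the whole array became 89 with the replicate number as a block, 17 and 5 with genes under the 25th percentile and under the median of level left out, and 45 with array weights; leaving out 1 array gave 6 to 999. Deviations of arrays with the same number correlated by 0.0505. This is a single comparison of 1 gap in each genotype, so it cannot show whether the numbers pair samples. Under the replicate block 0 complex genes were called. In all 10 alternatives that kept every array 0 of 40 complex genes were called, with a lowest adjusted p of 0.351 by limma; leaving out 1 array gave 0 to 3. The count at an unadjusted p under 0.05 ran from 0 to 20 with 1 array left out. The sign of 38 of 40 complex genes held in the 10 alternatives, the exceptions being Mllt10 (0.012) and Wdr5 (0.0027) with arrays centred. That of 22 held with each array left out. For the 21 genes whose genotypes did not overlap, leaving out 1 array could not turn the sign.

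Some medians moved. PRC2 was 0.049 with quantile normalization repeated, 0.052 with arrays centred and 0.098 with a gene's probe sets averaged. PRC1 was -0.016 and -0.014 in the first 2 of these, the Dot1l group was 0.072 with genes under the median level left out, and Flt3 passed under the block (adjusted p = 0.0246 by limma). With 1 array left out the median ran from -0.24 to 0.065 for the MLL group, -0.24 to 0.013 for the COMPASS core, 0.088 to 0.26 for the Dot1l group, 0.24 to 0.46 for the super elongation complex, -0.19 to 0.19 for the PAF1 complex, -0.10 to 0.11 for PRC2, -0.12 to 0.0093 for PRC1 and -0.051 to 0.035 for all complex genes. The genes whose sign turned ran over these ranges: Cbx2 -0.22 to 0.13, Mllt10 -0.13 to 0.088, Pcgf1 -0.11 to 0.014, Eed -0.10 to 0.14, Wdr5 -0.16 to 0.10, Hes1 -0.26 to 0.15, Ash2l -0.13 to 0.54, Kmt2c -0.40 to 0.29, Leo1 -0.047 to 0.24, Men1 -0.071 to 0.48, Paf1 -0.11 to 0.43, Aff1 -0.095 to 0.80, Aff4 -0.24 to 0.36, Cbx7 -0.034 to 0.051, Cbx8 -0.41 to 0.087, Ctr9 -0.75 to 0.13, Kmt2b -0.048 to 0.20, Kmt2d -0.19 to 0.50 and Suz12 -0.066 to 0.26. The filters tested fewer genes and the leave-one-out fits fewer arrays; otherwise the cause was not tested. Fits without 1 array assume that the lone array varies like the other genotype.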
